A study of Mus musculus with 6 samples.

Results

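The 10 activity-induced genes *Egr1*, *Egr2*, *Egr3*, *Egr4*, *Nr4a1*, *Nr4a2*, *Nr4a3*, *Ier2*, *Arc* and *Npas4* were followed by name through 6 RNA-Seq libraries of sorted mouse retinal cells, as 10 of the 55573 genes in the count table. Of these, 7 (*Egr1*, *Egr2*, *Egr3*, *Nr4a1*, *Nr4a2*, *Nr4a3* and *Ier2*) are inducible in many cell types and are called broadly induced here. The other 3 (*Egr4*, *Arc* and *Npas4*) are known mainly from neurons and are called neuron-restricted. The study asked what Ezh2, the methyltransferase of the Polycomb repressive complex PRC2, changes in injured retinal ganglion cells (RGCs) when it is overexpressed. Adult C57BL/6J mice received AAV2-GFP (3 libraries) or AAV2-Ezh2 (3 libraries) in the vitreous, all had the optic nerve crushed 2 weeks later, and cells positive for CD90.2, the product of *Thy1*, were sorted 3 days after the crush. AAV2 given this way also enters other retinal cells, so the vector does not restrict *Ezh2* to RGCs. Nothing in the labels ties the libraries of a group to separate animals, and p values measure only the spread between these libraries, which may be technical.

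Immediate early genes are transcribed within minutes of a stimulus, without new protein synthesis. Calcium and cAMP act on many of them through CREB at cAMP response elements, and growth factor and stress signals act through SRF and its ETS partners. The Egr proteins are zinc finger transcription factors held in check by the NAB corepressors, and the Nr4a proteins are orphan nuclear receptors. Arc is a cytoskeletal protein of synapses, and Npas4 is a transcription factor that responds almost selectively to calcium entry in neurons. In T cells, antigen receptor signaling induces *Egr2*, *Egr3* and the Nr4a genes.

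Total counts ranged from 30569933 to 35971192 per library. The *Ezh2* level was 28.8 to 34.6 CPM (counts scaled to the library total) with GFP and 65.3 to 104.8 CPM in the Ezh2 group, so every library labelled Ezh2 was above every GFP library. The study left out 1 Ezh2 library after clustering, and from the columns it displayed that library is inferred to be Ezh2-3. On log2 CPM, Ezh2-3 correlated with the other libraries at 0.958 to 0.972, against 0.976 to 0.988 among the other 5. Both fits are therefore given for each gene, with 5 libraries (GFP-1 to GFP-3, Ezh2-1 and Ezh2-2) and with all 6.

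Markers of several retinal cell types were present, and the defining RGC factors were close to 0. *Pou4f2* lay between 0 and 0.0932 CPM, *Pou4f3* between 0.0556 and 0.404 CPM and *Pou4f1* between 0 and 0.600 CPM, while *Thy1*, the gene of the sort marker, was at 87.2 to 113.8 CPM. The 12 RGC markers together summed to 141 to 145 CPM with GFP, to 164 to 176 CPM in Ezh2-1 and Ezh2-2 and to 177 CPM in Ezh2-3, and 2 of 10 tested were called higher with either set of libraries. A call required more than a 1.5-fold change together with an adjusted p below 0.05, and 2.52% of all genes tested were called higher with 5 libraries and 1.62% with 6. The 7 Müller glia markers summed to 30103 to 30723, 28567 to 30389 and 23252 CPM, respectively. Within this sum *Apoe* was called higher (5536 to 9049 CPM on average in the 5 libraries) and the remaining 6 were not called, while *Glul*, *Dkk3*, *Aqp4*, *Rlbp1* and *Slc1a3* were lower at the adjusted p alone. The 14 microglia and macrophage markers summed to 2333 to 2607, 3240 to 3439 and 2815 CPM, with 3 of 14 called higher with either set. The 14 T cell markers summed to 591 to 632, 766 to 804 and 1314 CPM, with 2 of 14 called higher with either set. The 8 cone markers summed to 28.8 to 29.0, 58.1 to 66.7 and 38.8 CPM, with 8 called higher in the 5 libraries and 2 in the 6. The 8 rod markers summed to 401 to 471, 713 to 756 and 423 CPM, with 3 called higher in the 5 libraries and 0 in the 6. By edgeR, 6 of the rod markers passed at the adjusted p alone in the 5 libraries. Glial RNA was thus abundant, and the summed microglia and T cell markers were above the GFP range in each Ezh2 library. In Ezh2-3, however, the microglia and macrophage markers went both ways, in genes named after their values were seen. *Ptprc* (617 against 196 to 250 CPM with GFP) and *Stab1* (207 against 55.4 to 64.4 CPM) were higher there. The excess of the microglia and macrophage sum over the GFP range in Ezh2-3 was smaller than the rise of *Ptprc* alone. *Csf1r* (447 against 499 to 545 CPM) and *Tmem119* (59.8 against 87.6 to 95.2 CPM) were below every GFP library. The summed rod markers were above the GFP range in Ezh2-1 and Ezh2-2 but not in Ezh2-3. In these bulk libraries, a change in the number of cells of a type and a change in RNA per cell cannot be told apart.

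**Figure D1:**
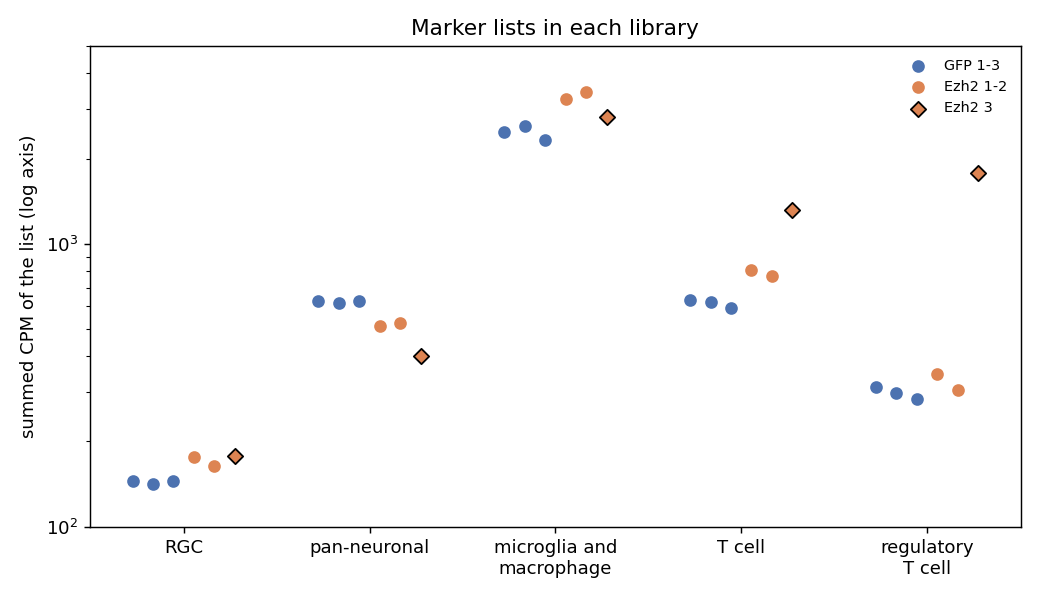
Summed CPM (log axis) of 5 marker lists in each library, with GFP-1 to GFP-3 as blue circles, Ezh2-1 and Ezh2-2 as orange circles and Ezh2-3 as outlined diamonds. The regulatory T cell list reached 1782 CPM in Ezh2-3 and 283 to 347 CPM in the other 5 libraries.

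Scaled to exon length, *Ier2* and *Egr1* were the most abundant of the 10 genes in the GFP libraries, at 22.5 ± 1.78 and 20.2 ± 0.754 RPKM (CPM divided by exon length in kilobases; SD, n = 3). *Nr4a1* (4.96 ± 0.531 RPKM) and *Egr2* (4.09 ± 0.503 RPKM) followed, and their libraries overlapped. The lowest *Ier2* library was barely above the highest *Egr1* library, and their difference was close to the spread of *Ier2*. The remaining neighbours in the order were separated, with *Arc* at 3.11, *Nr4a3* at 1.87, *Nr4a2* at 1.02, *Egr3* at 0.664 and *Npas4* at 0.145 RPKM, and *Egr4* last. In Ezh2-1 and Ezh2-2 the length-scaled means of *Ier2* and *Egr1* were 48.3 and 39.0 RPKM, and that of *Arc* was 4.38 RPKM. All values below are CPM unless stated, which compare libraries and not genes.

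**Figure D2:**
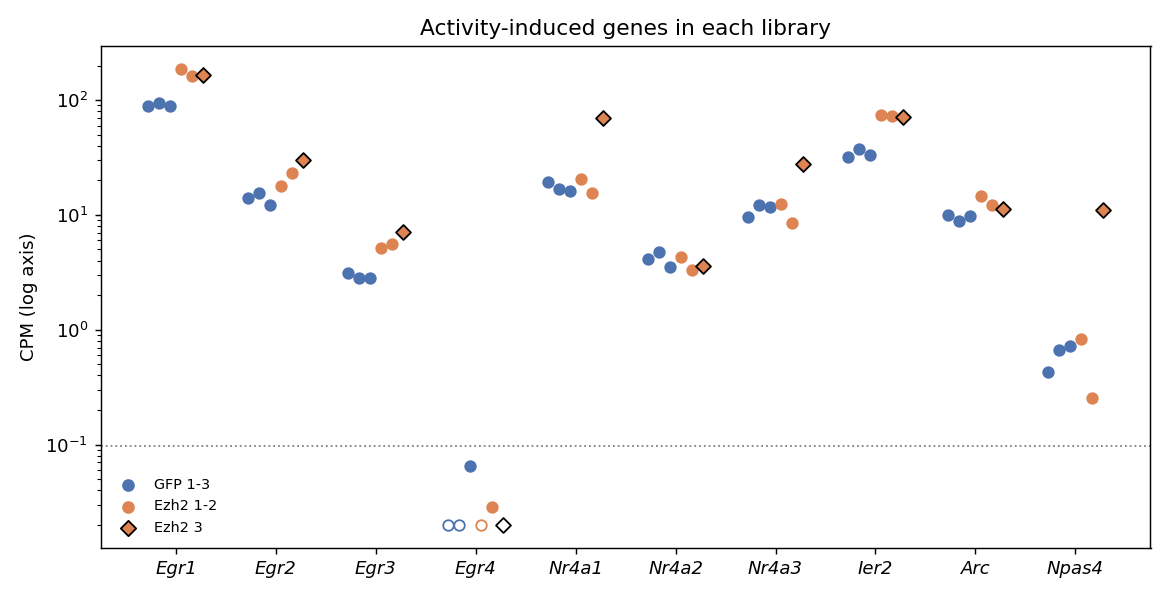
CPM of each gene in each library (log axis), with GFP-1 to GFP-3 as blue circles, Ezh2-1 and Ezh2-2 as orange circles and Ezh2-3 as outlined diamonds; open symbols are libraries with 0 counts, and the dotted line is the level of 3 counts in the shallowest library. *Egr1*, *Egr3* and *Ier2* lay higher in all 3 Ezh2 libraries, whereas *Nr4a1*, *Nr4a3* and *Npas4* stood out in Ezh2-3.

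Ezh2 overexpression was accompanied by higher *Egr1*, *Egr3* and *Ier2*, at a fold near 2, with either set of libraries. By the rule for a call, 3 of the 9 genes tested were called higher in the 5 libraries and 0 lower by edgeR, DESeq2 or limma-voom, and 0 were lower at an unadjusted p below 0.05. Of the 20241 genes tested there, 2.52% were called higher and 1.28% lower. With all 6 libraries the same 3 genes were called higher and 0 lower, beside 1.62% and 0.902% of 19732 genes. At the adjusted p alone, 5 of the 9 were higher in the 5 libraries (10.1% of the genes tested), and the additional genes were *Egr2* and *Arc*. The same 5 genes were above every GFP library in each Ezh2 library, a pattern seen in 21.5% of genes with 5 libraries and in 14.9% with 6.

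*Egr1*, the founding member of its family and the most abundant Egr gene here, lies on chromosome 18 at 34859823 to 34864984 (plus strand, GRCm38). It was at 89.6, 94.5 and 88.0 CPM in GFP-1, GFP-2 and GFP-3. It was at 188, 162 and 167 CPM in Ezh2-1, Ezh2-2 and Ezh2-3. Each Ezh2 library was clearly above each GFP library, and Ezh2-3 lay between the other Ezh2 libraries. This gave a log2 fold change of 0.95 ± 0.06 (SE; adjusted p = 1.9e-13) with 5 libraries and 0.96 ± 0.07 (adjusted p = 0.000386) with 6.

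*Egr2*, which guides myelination in Schwann cells and restrains T cell activation, lies on chromosome 10 at 67535475 to 67542188 (plus strand). Its levels were 14.0, 15.5 and 12.1 CPM with GFP and 17.9, 23.3 and 30.2 CPM in Ezh2-1, Ezh2-2 and Ezh2-3. The groups did not overlap, although the Ezh2 libraries were spread widely. The log2 fold change was 0.58 ± 0.12 with 5 libraries (adjusted p = 0.000949), a fold of 1.499 that fell just short of the threshold. It was 0.83 ± 0.21 with 6 libraries, where the adjusted p of 0.0578 missed the threshold instead. *Egr2* was called in the 5 libraries without GFP-1 (0.59), without GFP-2 (0.67) or without Ezh2-1 (0.77), and in the 6 without Ezh2-1 (1.01). Without Ezh2-2 it fell to 0.37 in the 5 libraries, and the adjusted p of 0.0926 no longer passed.

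*Egr3*, a close relative that is induced in the same settings as *Egr2*, lies on chromosome 14 at 70077203 to 70082614 (plus strand). It measured 3.14, 2.81 and 2.83 CPM with GFP against 5.19, 5.57 and 7.12 CPM in Ezh2-1, Ezh2-2 and Ezh2-3. The lowest Ezh2 library was thus well above the highest GFP library. In log2 terms the difference was 0.89 ± 0.21 (adjusted p = 0.00252) with 5 libraries and 1.07 ± 0.20 (adjusted p = 0.0191) with 6. In the 6 libraries the call was lost without GFP-1, GFP-2 or GFP-3, with adjusted p values of 0.0981, 0.107 and 0.125, whereas the log2 fold change stayed between 1.04 and 1.12.

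*Egr4*, on chromosome 6 at 85511121 to 85513589 (minus strand), was barely detected. It had 0, 0 and 2 counts in GFP-1, GFP-2 and GFP-3 and 0, 1 and 0 counts in Ezh2-1, Ezh2-2 and Ezh2-3. It did not pass the filter on low counts and was not tested. A count of 0 allows up to 3 counts, or 0.0834 to 0.0981 CPM depending on the library, for counting error only, so a difference in *Egr4* was not detectable at this depth.

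The 4 Egr genes summed to 103 to 113 CPM in the GFP libraries and to 191 to 211 CPM in the Ezh2 libraries. *Egr1* made up 83.8% to 85.4% of the Egr counts with GFP, and 89.0%, 84.9% and 81.7% in Ezh2-1, Ezh2-2 and Ezh2-3. The share of *Egr2* was 11.7% to 13.7% with GFP and 8.52%, 12.2% and 14.8% in the Ezh2 libraries, in the same order. *Egr1* thus made up most of the Egr counts in every library. The share of *Egr2* was below the GFP range in Ezh2-1 and above it in Ezh2-3, and that of *Egr1* went the other way in both.

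*Ier2*, a small nuclear protein gene of the immediate early class, lies on chromosome 8 at 84661331 to 84662852 (minus strand). Its levels were 32.2, 37.3 and 33.1 CPM with GFP and 73.6, 73.4 and 71.5 CPM in Ezh2-1, Ezh2-2 and Ezh2-3. The Ezh2 libraries lay closer together than the GFP libraries did, and there was no overlap. With Ezh2 the log2 fold change was 1.11 ± 0.07 (adjusted p = 1.27e-12) with 5 libraries and 1.13 ± 0.08 (adjusted p = 0.000346) with 6. The ratio of *Egr1* to *Ier2* CPM was 2.54 to 2.78 with GFP and 2.55, 2.21 and 2.33 in Ezh2-1, Ezh2-2 and Ezh2-3. It was below every GFP library in Ezh2-2 and Ezh2-3, where *Ier2* was thus higher by a somewhat larger factor than *Egr1*.

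**Figure D3:**
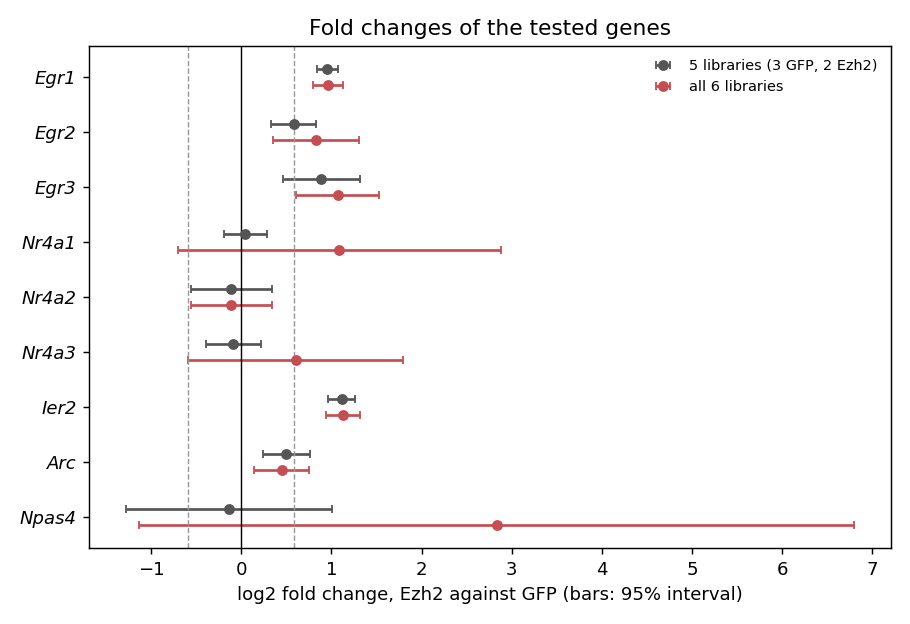
Log2 fold changes, Ezh2 against GFP, of the 9 genes tested, with 95% intervals, in the 5 libraries (grey) and in all 6 (red); dashed lines mark a fold of 1.5 in either direction. *Egr1* and *Ier2* lay near 1 with short intervals in both fits, and the interval of *Npas4* widened to -1.13 to 6.80 with all 6.

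The Nr4a genes did not pass the test with either set of libraries. Their promoter sequences are shown because 2 of these 3 related genes, *Nr4a1* and *Nr4a3*, were high in Ezh2-3 while *Nr4a2* was not. The windows are the bases before the RefSeq start (GRCm38.p6) that lie outside annotated exons, read 5′ to 3′ along the gene. Capitals mark TGACG, the core of the cAMP response element, or its reverse complement CGTCA and, in *Nr4a1*, an EGR site matched on the minus strand. The windows lie at chr15:101266596-101266845 (plus strand), chr2:57124004-57124253 (minus strand) and chr4:48045055-48045152 (plus strand), respectively. That of *Nr4a1* lies inside the annotated span of the gene, which begins further upstream.
Nr4a1: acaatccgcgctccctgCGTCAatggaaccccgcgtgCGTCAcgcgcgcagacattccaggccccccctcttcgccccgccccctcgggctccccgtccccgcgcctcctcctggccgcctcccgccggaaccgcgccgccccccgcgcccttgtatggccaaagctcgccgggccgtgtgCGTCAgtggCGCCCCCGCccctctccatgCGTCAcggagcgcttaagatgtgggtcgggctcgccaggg
Nr4a2: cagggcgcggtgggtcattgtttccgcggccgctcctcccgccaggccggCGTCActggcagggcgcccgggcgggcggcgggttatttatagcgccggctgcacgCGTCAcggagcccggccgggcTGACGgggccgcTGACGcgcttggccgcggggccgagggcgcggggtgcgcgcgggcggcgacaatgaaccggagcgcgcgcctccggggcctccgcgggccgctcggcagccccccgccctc
Nr4a3: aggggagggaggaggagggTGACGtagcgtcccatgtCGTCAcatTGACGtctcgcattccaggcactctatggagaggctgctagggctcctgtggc

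Within 250 bases before the start, *Nr4a1*, *Nr4a2* and *Nr4a3* each held 4 such cores, the fourth of *Nr4a3* lying outside the stretch printed. Of the 32851 windows in the RefSeq table, 45 (0.137%) held at least 4, and 17.8% held at least 1. *Egr4* and *Npas4* held 2 each, and 3.90% of windows held at least 2. The window of *Npas4* began inside an annotated exon, so its cores were not in a stretch before the first annotated exonic base. *Egr2*, with 5 starts in the table, held 0 in its most upstream window and at least 1 in another. All 6 members with a window thus held the core in some window. The core was added to the search after these windows had been read. The full element TGACGTCA was found in 0 of the 6 members with a window (1.55% of all windows). The EGR sites GCGTGGGCG and GCGGGGGCG were found in *Nr4a1* alone, 60 to 52 bases before its start (3.06% of all windows). A CArG box, to which SRF binds, was found in a window of *Egr2* (1.47%), and AAAGGTCA, the site of Nr4a monomers (1.34%), and TGACTCA, the AP-1 site (4.46%), in 0 of the 6; all were searched on both strands. The Nr4a genes thus held equal numbers of cores, counting the core of *Nr4a3* outside the stretch printed. The part of the cores in the levels of these genes was not tested. A match of letters describes the sequence and is not evidence of binding.

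*Nr4a1*, which is induced by antigen receptor signals in T cells and by activity in neurons, lies on chromosome 15 at 101254269 to 101274795 (plus strand). It was at 19.5, 16.7 and 16.0 CPM with GFP, at 20.4 and 15.4 CPM in Ezh2-1 and Ezh2-2, and at 70.3 CPM in Ezh2-3. The first 2 Ezh2 libraries enclosed the GFP range, and Ezh2-3 was 3.93-fold above their mean. The log2 fold change was 0.05 ± 0.11 with 5 libraries (95% interval -0.19 to 0.28, adjusted p = 0.837). With 6 libraries it was 1.09 ± 0.68 (95% interval -0.71 to 2.88, adjusted p = 0.390). The interval from 5 libraries thus did not reach a fold of 1.5, while that from 6 spanned both directions.

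*Nr4a2*, a factor needed by midbrain dopamine neurons, lies on chromosome 2 at 57106830 to 57124003 (minus strand). It measured 4.12, 4.74 and 3.51 CPM with GFP and 4.29, 3.31 and 3.59 CPM in Ezh2-1, Ezh2-2 and Ezh2-3. The groups overlapped, and Ezh2-3 was within the range of the other Ezh2 libraries. Its log2 fold change was -0.11 ± 0.22 (95% interval -0.56 to 0.34, adjusted p = 0.793) with 5 libraries and -0.11 ± 0.20 (adjusted p = 0.764) with 6.

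*Nr4a3* lies on chromosome 4 at 48045153 to 48086447 (plus strand) and was at 9.58, 12.2 and 11.7 CPM with GFP. It was at 12.5 and 8.42 CPM in Ezh2-1 and Ezh2-2 and at 28.0 CPM in Ezh2-3. As for *Nr4a1*, the first 2 Ezh2 libraries lay on both sides of the GFP libraries and Ezh2-3 was far above. The log2 fold change was -0.09 ± 0.15 (95% interval -0.39 to 0.22, adjusted p = 0.759) with 5 libraries and 0.60 ± 0.48 (95% interval -0.59 to 1.80, adjusted p = 0.477) with 6. Its direction thus turned with Ezh2-3.

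The 3 Nr4a genes together summed to 31.3 to 33.6 CPM with GFP, 37.2 CPM in Ezh2-1, 27.1 CPM in Ezh2-2 and 102 CPM in Ezh2-3. *Nr4a2* made up 11.2% to 14.1% of the Nr4a counts in the other 5 libraries and 3.52% in Ezh2-3. *Nr4a1* made up 49.7% to 58.8% in those 5 libraries and 69.0% in Ezh2-3.

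*Arc*, whose protein regulates glutamate receptors at synapses, lies on chromosome 15 at 74669083 to 74672570 (minus strand). Its levels were 9.98, 8.85 and 9.73 CPM with GFP and 14.6, 12.2 and 11.2 CPM in Ezh2-1, Ezh2-2 and Ezh2-3. Each Ezh2 library was above each GFP library, with Ezh2-3 the nearest to them. The log2 fold change of 0.50 ± 0.13 with 5 libraries (adjusted p = 0.00498) corresponded to a fold of 1.41 and was not called. With 6 libraries it was 0.45 ± 0.14 (adjusted p = 0.0896). *Arc* was called in the 5 libraries without Ezh2-2 (0.61, adjusted p = 0.0061), and without Ezh2-1 its value of 0.38 no longer passed at the adjusted p (0.129).

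*Npas4*, on chromosome 19 at 4984355 to 4990316 (minus strand), had 13, 21 and 22 counts in GFP-1, GFP-2 and GFP-3, or 0.425, 0.663 and 0.716 CPM. It had 27 and 9 counts in Ezh2-1 and Ezh2-2 (0.838 and 0.257 CPM) and 399 counts (11.1 CPM) in Ezh2-3. Ezh2-3 was 20.2-fold above the mean of the other Ezh2 libraries, which themselves lay above and below all GFP libraries. Fitted to 5 libraries, the log2 fold change was -0.14 ± 0.56 (95% interval -1.28 to 1.00, adjusted p = 0.905). It was 2.83 ± 1.53 with 6 (95% interval -1.13 to 6.80, adjusted p = 0.322). At these counts a 2-fold change in either direction lay inside or at the edge of the interval from 5 libraries.

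**Figure D4:**
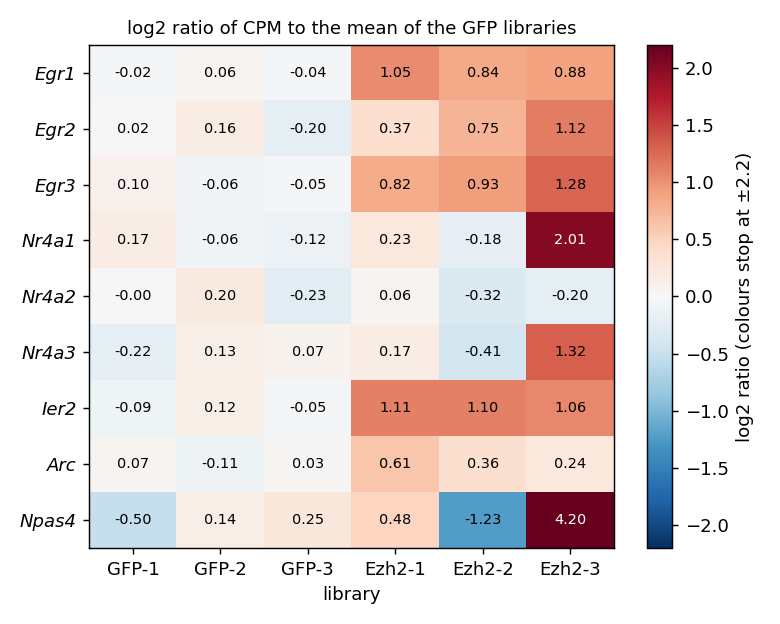
Log2 ratio of the CPM in each library (columns) to the mean of the 3 GFP libraries for the 9 genes tested (rows), with red for higher and blue for lower. *Egr1* and *Ier2* had ratios of 0.84 to 1.11 in all 3 Ezh2 libraries, and *Nr4a1*, *Nr4a3* and *Npas4* had 2.01, 1.32 and 4.20 in Ezh2-3.

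Between the broad and the neuron-restricted genes, the data gave no uniform split. Of the 7 broadly induced genes, 3 were called higher, 1 passed at the adjusted p alone and the 3 Nr4a genes did not pass, with a median log2 fold change of 0.58 in the 5 libraries. Of the 3 neuron-restricted genes, *Arc* passed at the adjusted p alone, *Npas4* did not pass and *Egr4* was not tested. The ratio of summed broad to summed neuron-restricted CPM was 15.9 to 19.3 in the GFP libraries, 20.9 in Ezh2-1, 23.4 in Ezh2-2 and 16.9 in Ezh2-3. The first 2 Ezh2 libraries were thus above the GFP range, and Ezh2-3, with its *Npas4*, was inside it. The ratio of *Egr1* to *Arc* was 8.98 to 10.7 with GFP and 12.9, 13.3 and 14.8 in the Ezh2 libraries, without overlap. No test was made on these ratios, since the genes were chosen with results known.

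A longer list of broadly induced immediate early genes was mostly higher with Ezh2. Of 42 genes, 11 were called higher and 0 lower in the 5 libraries, and also 11 and 0 with 6 libraries, beside 2.52% and 1.62% of all genes called higher. At the adjusted p alone 29 were higher and 1 lower in the 5 libraries (10.1% and 7.68% of all genes), and 17 and 0 with all 6, which include Ezh2-3 (3.08% and 2.7%). In the 5 libraries the median log2 fold change was 0.32, against -0.01 over all genes tested. There, at an unadjusted p below 0.05, 32 were higher and 1 lower, and DESeq2 and limma-voom each called 11 higher and 0 lower. *Gadd45g*, a stress-induced growth arrest gene, rose from 12.1 to 12.8 CPM with GFP to 27.4, 30.8 and 31.2 CPM (log2 fold change 1.22 ± 0.10, adjusted p = 1.28e-10 with 5 libraries). *Fosb* (1.22 ± 0.11), *Fos* (0.99 ± 0.05) and *Junb* (0.88 ± 0.05), which encode subunits of AP-1, were called higher. So were *Ccn1*, a secreted matrix protein gene (0.96 ± 0.05), and *Socs3*, a feedback inhibitor of cytokine signaling (0.83 ± 0.05). *Fos* was at 268 to 298 CPM with GFP and at 590, 545 and 518 CPM in the Ezh2 libraries, well apart from the controls.

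Other genes induced by activity in neurons did not move together. Of 18, 1 was called higher and 0 lower in the 5 libraries, and the median log2 fold change was -0.05. At an unadjusted p below 0.05, 1 was higher and 4 lower, and DESeq2 and limma-voom each called 1 higher and 0 lower. The called gene was *Ptgs2*, which encodes the inducible cyclooxygenase, at 2.16 to 3.03 CPM with GFP and 4.50, 4.40 and 3.36 CPM in the Ezh2 libraries (0.80 ± 0.23, adjusted p = 0.0132). With all 6 libraries *Ptgs2* was at 0.70 ± 0.22 (adjusted p = 0.0936), and 0 genes of the list were called, with 2 higher and 3 lower at an unadjusted p below 0.05. Without Ezh2-1 or without Ezh2-2 the count in the 5 libraries was also 0. The following were named after their values had been seen. *Scg2*, a neuropeptide precursor gene, passed at the adjusted p alone, at 55.8 to 63.0 CPM with GFP and 45.7, 42.1 and 30.2 CPM with Ezh2 (-0.40 ± 0.07, adjusted p = 0.00013). *Crem*, a cAMP-responsive modulator gene, did so at -0.28 ± 0.08 (adjusted p = 0.0163), whereas its level in Ezh2-3, 56.6 CPM, was above all other libraries. At this threshold 7.68% of all genes were lower. *Gpr3* and *Pcsk1* had values of 1.22 ± 0.62 and -1.01 ± 0.51 (adjusted p = 0.186 for each) and were under 1.5 CPM in all libraries.

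**Figure D5:**
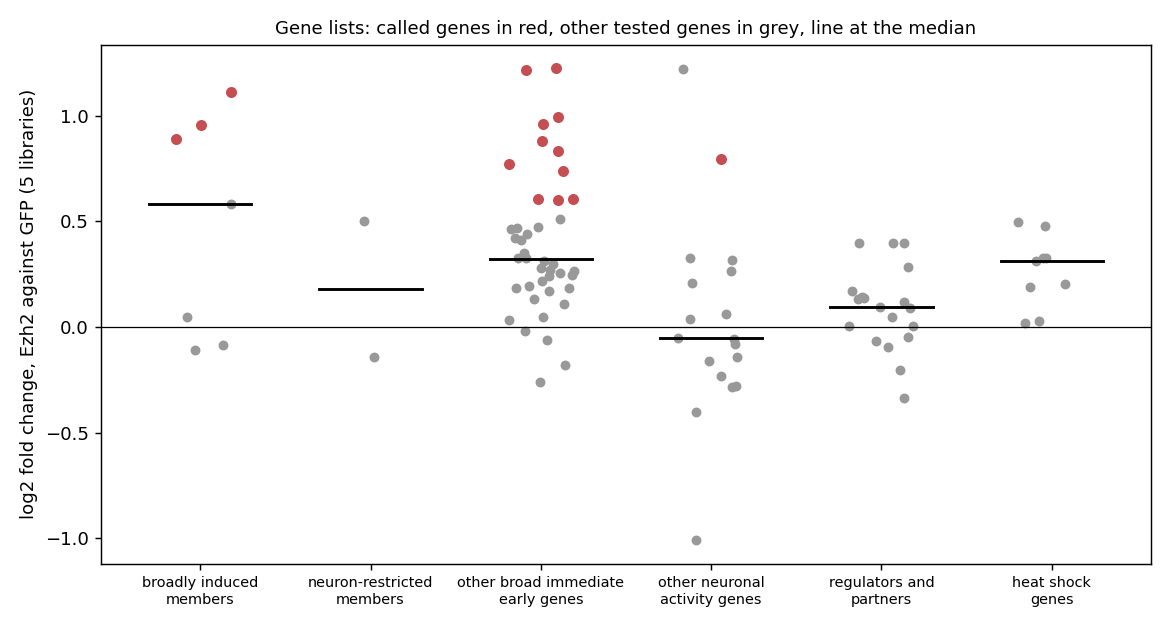
Log2 fold changes of the tested genes of 6 lists in the 5 libraries, each point a gene, called genes in red, others in grey, and the list median as a line. The called genes lay in the 2 lists of broad immediate early genes, apart from *Ptgs2* among the neuronal activity genes.

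Among 19 regulators and partners of the 10 genes, 0 were called in either direction by edgeR in the 5 libraries or in the 6, and DESeq2 and limma-voom called 0 in the 5. At an unadjusted p below 0.05, 5 were higher and 1 lower in the 5 libraries, and 5 and 0 in the 6. At the adjusted p alone 4 were higher and 1 lower in the 5 libraries, beside 10.1% and 7.68% of all genes, and 2 and 0 in the 6, beside 3.08% and 2.7%. The median log2 fold change was 0.09 in the 5 libraries. *Srf*, which encodes the serum response factor, was at 22.0 to 26.1 CPM with GFP and 32.7, 31.7 and 39.6 CPM in the Ezh2 libraries (0.40 ± 0.09, adjusted p = 0.0013). *Nab2*, a corepressor of Egr proteins and itself an Egr target, was at 42.7 to 47.7 CPM with GFP and 58.2, 60.7 and 54.4 CPM with Ezh2 (0.40 ± 0.07, adjusted p = 9.93e-05). Both lay in the direction of *Egr1*, at a fold below 1.5, and were named after their values had been seen.

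The dissociation used papain at body temperature, and heat shock genes, of which some but not all are induced by stress of cells, were measured beside the 10 genes. The 9 genes summed to 1518 to 1589 CPM with GFP, to 1918 to 1942 CPM in Ezh2-1 and Ezh2-2 and to 2171 CPM in Ezh2-3. Most of this sum was *Hspa8*, at 860 to 884 CPM with GFP and 1205, 1199 and 1293 CPM in Ezh2-1, Ezh2-2 and Ezh2-3. *Hspa1a* and *Hspa1b* were within their GFP ranges in Ezh2-2 (9.88 and 11.4 CPM) and above them in Ezh2-1 and Ezh2-3. By edgeR, DESeq2 or limma-voom 0 of the 9 were called in the 5 libraries, 5 were higher at an unadjusted p below 0.05, 4 were higher at the adjusted p alone (10.1% of all genes), and all 9 had positive log2 fold changes with a median of 0.31. With all 6 libraries 2 were higher at the adjusted p alone (3.08% of all genes). The summed heat shock, microglia and T cell levels were above the GFP range in each Ezh2 library, as were *Egr1* and *Ier2*. Single genes of these lists were not all above it, and the following were named after their values were seen. *Hsph1*, *P2ry12* and *Tmem119* lay within their GFP ranges in Ezh2-1 and Ezh2-2, as *Hspa1a* and *Hspa1b* did in Ezh2-2. In Ezh2-3 *Csf1r* and *Tmem119* were below their GFP ranges, and the excess of the microglia sum was smaller than the rise of *Ptprc* alone. The part of these lists in the result was not tested.

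Ezh2-3 was set apart by regulatory T cell markers. Of the 9 listed, 9 were more than 2-fold above each of the other 5 libraries. So were 4 of 14 T cell markers, 1 of 7 amacrine markers (*Gad1*) and 2.74% of the 19732 genes tested. *Foxp3* was at 9.02 to 11.5 CPM in the other libraries and at 92.4 CPM in Ezh2-3, and *Il2ra*, the interleukin 2 receptor alpha gene, was at 29.8 to 44.8 and at 442 CPM. By the same measure *Nr4a1*, *Nr4a3* and *Npas4* stood out among the 10 genes, and 0 of the 18 other neuronal activity-induced genes did. Of the 42 other broad genes 5 did, namely *Myc*, *Klf2*, *Dusp4*, *Dusp5* and *Csrnp1*, named after their values were seen. *Dusp4*, a MAP kinase phosphatase gene, was at 28.8 to 37.3 CPM in the other libraries and at 137 CPM in Ezh2-3. The 8 pan-neuronal markers summed to 617 to 626 CPM with GFP, 511 and 525 CPM in Ezh2-1 and Ezh2-2 and 401 CPM in Ezh2-3. Each Ezh2 library was thus below each GFP library, and Ezh2-3 was the lowest. In the 5 libraries 1 of the 8 pan-neuronal markers was called higher and 0 lower (2.52% and 1.28% of all genes tested). The amacrine markers summed to 509 to 529 CPM with GFP and to 449, 441 and 398 CPM in Ezh2-1, Ezh2-2 and Ezh2-3. The part of the T cell and neuronal markers in the levels of *Nr4a1*, *Nr4a3* and *Npas4* was not tested.

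Across the 6 libraries and 10824 genes with a mean of at least 10 CPM, the genes most like *Egr1* by Pearson's r of log2 CPM were *Jun* (0.998), *Miat*, *Fos*, *Msn* and *Irf8* (0.993 to 0.994). *Miat*, a long noncoding RNA, was at 3.42 to 4.42 CPM with GFP and 22.9 to 25.7 CPM with Ezh2. Among those most like *Nr4a1* were *Ddx11*, *Bnip1*, *Izumo1r* and *Mboat7* (0.997 to 0.999), and *Izumo1r*, a folate receptor gene of T cells, was at 14.5 to 17.5 CPM in the other libraries and at 58.6 CPM in Ezh2-3. The first set followed the group difference and the second followed 1 library, and with 6 points these values describe likeness alone.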

How the data were processed

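Libraries of total RNA were made with a stranded kit from sorted retinal cells. The table deposited by the authors holds raw counts of reads for each Ensembl gene in the 6 libraries. The submitters' processing notes name STAR 2.7.0d and GRCm38. The counting program, annotation release and strand setting were not given in the sources used here, so reads of antisense partners could not be told apart; no member shared exonic bases with another gene of the annotation. All 6 columns were matched to samples and 0 were left over. Of 55573 identifiers, 55480 matched GENCODE M21, which gave symbols, coordinates and exon lengths.

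Genes passing filterByExpr were tested in edgeR 4.0.16 (R 4.3.3) by glmQLFTest on TMM-scaled counts (robust empirical Bayes, group as the single term), with Benjamini-Hochberg adjustment over all genes tested. The 5 libraries were the primary comparison. Standard errors were taken from the F statistic. The biological coefficient of variation was 0.0846 with 5 libraries and 0.184 with 6. The procedure was tested on simulated data. DESeq2 1.42.0 and limma 3.58.1 (voom) were alternatives. CPM and RPKM used library totals. Likeness was computed on log2 CPM (prior count 2). Promoter windows came from RefSeq (GRCm38.p6), with 6 of the 10 members matched. The 95% intervals of fold changes include the spread between libraries. The 3-count floor covers counting error only, since the reads carry no molecular identifiers.

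The members and lists were chosen with earlier results of these data known. The text names the 10 members, *Ezh2*, at most 6 called genes per other list (largest absolute change in the 5 libraries), the 5 genes most like *Egr1* and *Nr4a1* (1 of the latter is not reported here), and markers where a list is described.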

Additional observations from a re-analysis of the deposited data

How the results depend on the processing

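In the 5 libraries, 3 members were called with all 6 libraries, DESeq2, limma-voom, RLE factors, library totals, no filter, a mean count of at least 50, the non-robust step (added after the data were seen) and the replicate number as a block. With no fold threshold 5 members were called, as were 29 other broad immediate early genes higher and 1 lower, 4 regulators higher and 1 lower, 4 heat shock genes higher and 2 other neuronal activity-induced genes lower. Leaving out 1 library at a time gave 3 to 4 members from the 5 libraries, 2 to 4 from the 6, 8 to 12 other broad genes higher and 0 to 1 neuronal genes higher; the last count was 0 with all 6 libraries, and 0 with the replicate block and all 6. Where 1 Ezh2 library remained, it was assumed to vary like the GFP group.

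Directions changed among genes that were not called. *Nr4a1* was at -0.016 (log2) with the replicate block in 5 libraries, and at -0.15 to 0.22 when 1 library was left out. *Nr4a2* ranged from -0.29 to 0.053 in the 5 libraries and from -0.21 to 0.0048 in the 6. *Nr4a3* was at 0.60 with all 6 libraries, 0.42 with the replicate block and all 6, and -0.38 to 0.16 with 1 of the 5 left out. *Npas4* was at 2.83, 1.51 and -1.19 to 0.47, respectively. The lowest *Nr4a1* value was without Ezh2-1, and the highest *Nr4a2*, *Nr4a3* and *Npas4* values from the 5 libraries were without Ezh2-2. The cause was not tested. Same-numbered libraries did not deviate together (correlations -0.0045, -0.0199 and -0.0099), so the numbers were not treated as pairs, and the block changed no member's call. Depth limits *Egr4* and *Npas4* most.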
